A study of Mus musculus with 40 samples.

Results

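The measurements described here are those at 442 CpG sites on unplaced contigs, pieces of assembled mouse DNA that the mm9 build could not put into a chromosome. Members were all listed CpGs whose chromosome name was not one of the numbered chromosomes, X, Y or M, which left the names carrying random or Un, and they were 442 of the 400298 CpGs listed, the other 399856 lying on the chromosomes. Methylation had been measured by reduced representation bisulfite sequencing (RRBS) of liver DNA from 40 male C57BL/6 mice (C57BL/6J in the study's methods) aged 9 weeks, to ask whether the diet of the mother left marks on the liver methylome of the offspring, and the diet after weaning was the other factor of the design. There were 4 groups of 10 mice: born to low fat (LF) dams and fed LF after weaning, born to LF dams and fed high fat (HF), born to HF dams and fed LF, and born to HF dams and fed HF. All mice were males of 1 strain, the tissue was whole liver with all its cell types, and the study's methods say that the males of a cage were divided between the diets after weaning. Litter mates can therefore lie within a group and across groups, but the labels did not say which mice shared a dam, so the tests treat mice as independent and p-values measure the spread between these mice only. Summed over the listed CpGs, each mouse had between 2969907 and 23345592 read counts, of which 3179 to 24713 lay on the contigs (a read that covers several CpGs is counted at each), and between 239 and 442 of the contig CpGs reached the 10 reads the deposited table requires.

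In RRBS the restriction enzyme MspI cuts DNA at CCGG whether or not the CpG inside it is methylated, and short fragments are kept, which favours CpG islands, the CpG-dense stretches found at many gene starts. Bisulfite then turns unmethylated cytosines into uracil, which is read as T, while methylated cytosines are still read as C, so the share of reads with C is the methylation level. In mammals CpG islands at gene starts are mostly unmethylated, whereas CpGs elsewhere and in repeats are mostly methylated. Contigs stay unplaced for several reasons, among them repeated sequence around them, so a read there may fit more than 1 place in the genome, and aligners drop reads that fit several places equally well.

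The contigs held both kinds of sequence, and a few stretches show it best. Below, capitals mark the CpGs with a listed value and other CpGs are in lower case; coordinates are those of mm9, the letters are of its plus strand, and all were read from the contig sequences of the reference. The first group shows clusters with almost no methylation, an upstream region of Gm34102 (a predicted gene), an upstream region of Maml2 (a coactivator of Notch signalling), and a dense cluster on chr4_random near which no gene start was matched:
Gm34102 upstream cluster, chr1_random:318489-318698: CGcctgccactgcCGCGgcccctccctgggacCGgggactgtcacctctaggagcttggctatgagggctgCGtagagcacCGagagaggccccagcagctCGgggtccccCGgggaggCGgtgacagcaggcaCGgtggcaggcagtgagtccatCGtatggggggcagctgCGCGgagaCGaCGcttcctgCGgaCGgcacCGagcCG
Maml2 upstream cluster, chr9_random:422520-422738: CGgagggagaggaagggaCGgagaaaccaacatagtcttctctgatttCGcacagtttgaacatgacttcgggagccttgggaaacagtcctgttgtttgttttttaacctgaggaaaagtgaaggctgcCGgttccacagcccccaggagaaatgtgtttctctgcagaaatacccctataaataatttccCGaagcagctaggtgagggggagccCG
dense unmethylated cluster, chr4_random:110097-110208: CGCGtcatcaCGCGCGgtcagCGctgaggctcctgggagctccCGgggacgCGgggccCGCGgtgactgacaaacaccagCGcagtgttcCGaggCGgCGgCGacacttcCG

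The second group shows clusters that were methylated in all mice, CpG-dense stretches among them:
methylated cluster on chrUn_random, chrUn_random:3639000-3639087: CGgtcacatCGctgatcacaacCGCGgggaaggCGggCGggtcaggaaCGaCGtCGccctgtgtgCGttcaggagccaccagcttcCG
methylated cluster on chr9_random, chr9_random:50204-50250: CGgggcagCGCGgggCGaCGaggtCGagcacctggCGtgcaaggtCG
methylated cluster on chr8_random, chr8_random:320419-320506: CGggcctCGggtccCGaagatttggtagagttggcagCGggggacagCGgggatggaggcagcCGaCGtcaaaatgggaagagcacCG
methylated cluster on chr4_random with 1 lower CpG, chr4_random:129200-129244: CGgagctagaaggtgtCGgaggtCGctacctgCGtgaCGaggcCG

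The third group shows stretches with levels in between, where several of the CpGs with the largest diet differences and the widest spread between mice lay. The last 2 resemble each other, with a run of 26 letters in common, where no other pair of placed clusters of 3 or more CpGs shared a run of more than 12:
mixed cluster, chrUn_random:3754956-3755070: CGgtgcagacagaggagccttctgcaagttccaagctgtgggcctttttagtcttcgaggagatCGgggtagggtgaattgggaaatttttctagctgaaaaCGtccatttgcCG
cluster with 1 lower CpG, chrUn_random:2676418-2676512: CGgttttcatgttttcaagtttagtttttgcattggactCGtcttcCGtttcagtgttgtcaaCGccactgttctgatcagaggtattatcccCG
variable cluster, chrUn_random:3335259-3335349: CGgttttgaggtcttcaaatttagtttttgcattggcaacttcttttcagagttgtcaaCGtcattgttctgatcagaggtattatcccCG

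Most contig CpGs were either nearly unmethylated or nearly fully methylated. Of the 442, 275 (62.2%) had a mean below 10%, 96 (21.7%) had a mean of 90% or more, and 71 (16.1%) lay between. On the chromosomes the same classes held 56.2%, 17.1% and 26.7% of CpGs, so the contigs had fewer CpGs between the extremes. These shares are a description, since neighbouring CpGs share reads and are not independent. The mean over CpGs was 33% on the contigs and 33.8% on the chromosomes, and the medians were 4.30% and 5.92%. The median CpG mean was 22.4 reads on contigs and 22.5 on chromosomes, but 27 of the 442 contig CpGs were in the highest 1% of all listed CpGs by coverage. The highest CpG mean was 85.6 reads on contigs and 215285 on chromosomes.

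The contigs differed widely from each other. chr9_random (116 CpGs, mean 16.2%), chr1_random (105 CpGs, 22.7%) and chr4_random (60 CpGs, 32.3%) held mostly unmethylated CpGs, with 98, 81 and 39 of them below 10%. chrUn_random, whose sequences have no known chromosome, had 116 CpGs with a mean of 40.3%, and 36 of them lay between 10% and 90%. The 4 smaller contigs had higher means: it was 78.6% over 5 CpGs of chrX_random, 79.0% over 22 CpGs of chrY_random, 84.4% over 13 CpGs of chr8_random and 92.7% over 5 CpGs of chr13_random. Not all of their CpGs were highly methylated, since 9 of the 22 on chrY_random, 3 of the 13 on chr8_random and 2 of the 5 on chrX_random had means between 20 and 80%, and 1 on chrY_random had a mean of 9.61%.

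**Figure D1:**
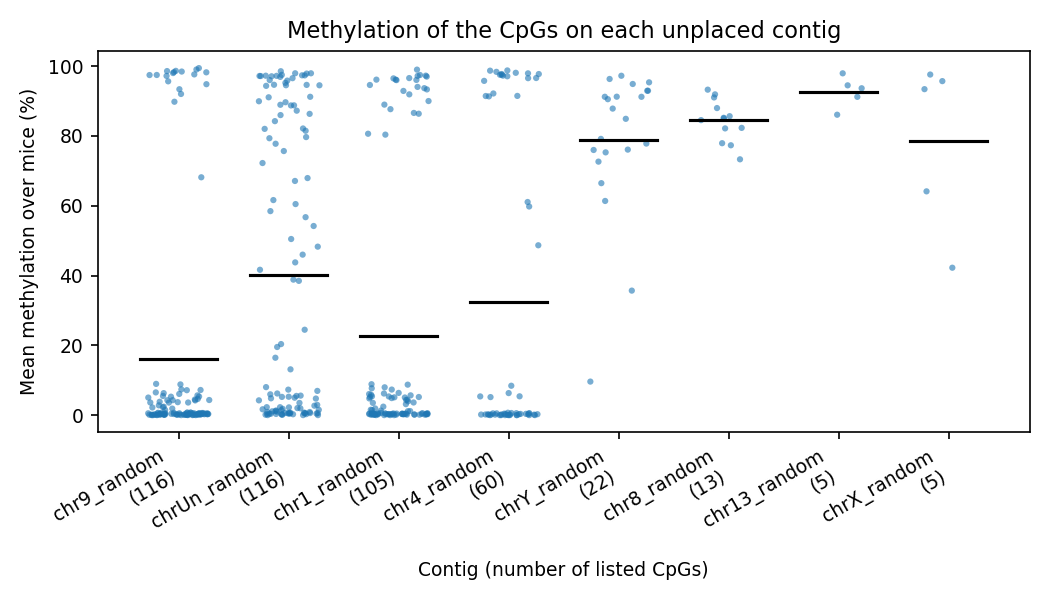
Each point is 1 listed CpG, at its mean methylation over mice (%, vertical axis), by contig (horizontal axis, number of CpGs in brackets), and black bars are the mean over CpGs. chr9_random, chr1_random and chr4_random crowd near 0 and above 90%, chrUn_random fills the range between, and the 4 contigs on the right lie mostly above 60%.

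The CpGs lay in 95 clusters of neighbours at most 100 bp apart. Of these, 27 had 5 or more CpGs and together held 307 of the 442, and 29 were single CpGs. The position of 400 CpGs (90.5%) could be read in the contig sequences of the reference; the other 42, among them all 22 of chrY_random and all 5 of chrX_random and of chr13_random, could not be read and have no sequence here. The 400 fell on 18 contig sequences, and 345 of them on just 6.

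Many of the unmethylated CpGs lay at gene starts. The RefSeq promoter windows of 26 genes matched a contig letter for letter, and 10 of these genes had listed CpGs between 1000 bp upstream and 500 bp downstream of the start. In GRCm38.p6, the build of those windows, the promoters of all 10 lay on the chromosome to which mm9 assigns the contig without a position. These windows held 129 CpGs with a mean of 5.31%, and 124 were below 10%. The 271 placed CpGs outside the windows had a mean of 38.8%, with 150 below 10%.

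On chr1_random, 6 genes had listed CpGs in the windows around their starts. Brox, which encodes a protein with a BRO1 domain, had 17 CpGs with a mean of 2.58% and a range of 0.0 to 6.19%. Aida, which encodes an axin interactor and whose window overlaps that of Brox, had 10 CpGs with a mean of 2.24%. Mia3, whose product TANGO1 loads collagen for export from the endoplasmic reticulum, had 21 CpGs with a mean of 1.18% and a highest value of 8.73%. Taf1a, a subunit of the factor that brings RNA polymerase I to ribosomal RNA genes, had 7 CpGs with a mean of 2.24%. Gm34102 had 23 CpGs with a mean of 1.47%. The exception was Fam177b, whose 5 CpGs had a mean of 96.5%, with a range of 91.9 to 99.0%. They lay far upstream, from 249908 to 250026, with the start at 249080 on the minus strand. No CpG close to that start was listed, so its methylation is not known. The 2 CpGs at 250023 and 250026 had a copy on a chromosome.

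On chr9_random, 4930526I15Rik and LOC108167694 start close to each other and shared most of their CpGs. Their windows held 39 and 44 CpGs with means of 1.03% and 1.10%, and no CpG there passed 8.80%. Maml2 had 6 CpGs with a mean of 3.76% and 2010315B03Rik had 3 with a mean of 2.28%. The Maml2 cluster printed above had a GC content of 49.3% and an observed to expected CpG ratio of 0.493 over 300 bp, against 71.3% and 0.760 at Gm34102, and was unmethylated all the same. Its mouse means ranged from 0.0 to 10.8%, with a median of 3.64% over 39 mice.

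**Figure D2:**
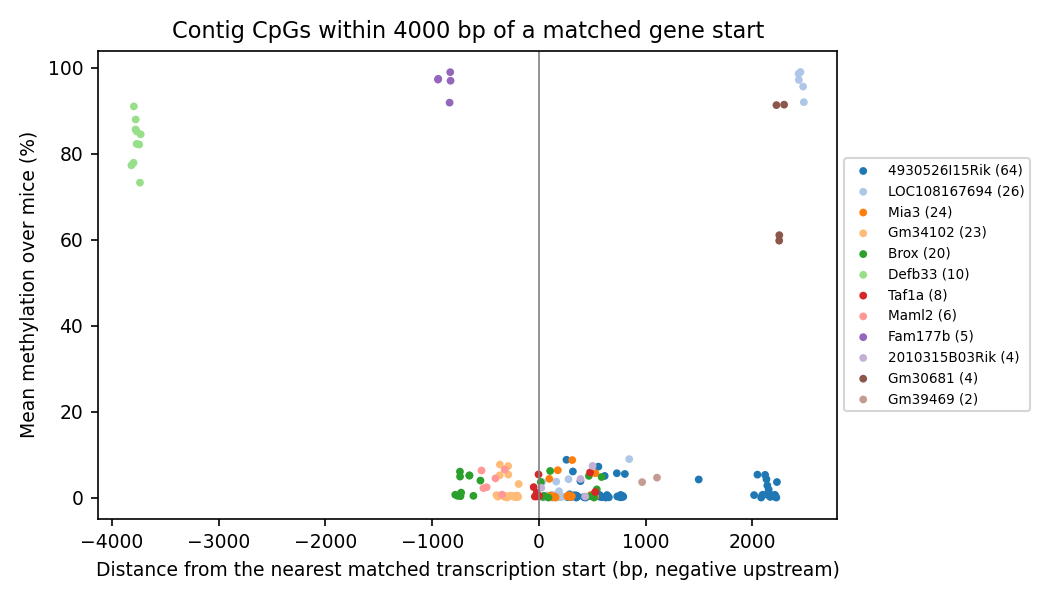
Each point is 1 of 196 contig CpGs within 4000 bp of a matched transcription start, at its distance from the nearest start (bp, negative upstream, horizontal axis) and its mean methylation (%, vertical axis), coloured by gene with the number of CpGs in brackets. Near the starts the points lie below 10%. The 5 methylated CpGs upstream of Fam177b lie toward the outer edge of the 1000 bp window, and the other methylated CpGs lie farther away.

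Unmethylated clusters also occurred where no gene start was matched. The 2 neighbouring clusters of chr4_random starting at 110098 and 110739, with 18 and 21 CpGs, had means of 1.01% and 0.955%, and their CpG ratios of 1.07 and 1.18 were among the highest. On chrUn_random, 4 clusters starting at 3233082, 3234228, 3234559 and 3235071 held 22, 5, 5 and 6 CpGs with means of 2.0%, 2.37%, 2.45% and 1.79%. In 40 mice the mean of the cluster at 3233082 ranged from 0.663 to 3.64%.

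Methylated clusters differed in their level and in the range of their mouse means. Those ranges also depend on the level, depth and number of CpGs of a cluster. They therefore do not show that mice themselves varied more at some clusters than at others. The 13 CpGs of the cluster on chrUn_random starting at 3639000, printed above, had means between 95.2 and 98.6%, and the mouse means ranged from 94.1 to 98.7% with a median of 97.4% over 39 mice. Its CpG ratio was 1.22, close to the 1.23 of the unmethylated cluster of chr9_random at 55781, which had a mean of 1.11%. These 2 clusters of like CpG ratio lay at opposite ends of the range of methylation, with a GC content of 45.7% in the former and 61.7% in the latter. The 8 CpGs of the cluster on chr9_random at 50204 had a mean of 98.3% (34 mice, 95 to 100.0%) at a GC content of 65.3%, and the 9 CpGs of the cluster on chr4_random at 129873 had a mean of 96.0% (88.0 to 100.0%). The cluster of 10 CpGs on chr8_random was lower, with a mean of 82.8% and mouse means from 75.0 to 88.0%, and so was the cluster of 5 CpGs on chrY_random at 5976296, with a mean of 85.7% and mouse means from 76.9 to 96.4%.

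Neighbouring listed CpGs could lie in opposite states. On chr9_random the last CpG of the methylated cluster at 52355 had a mean of 98.7% at 52404, the next listed CpG at 53991 had 8.95%, and the cluster from 54560 had 0.872%. On chr1_random the mean fell from 87.7% at 411740 to 8.86% at 412570. On chrUn_random there was a smaller step, from 24.5% at 3232912 to 4.99% at 3233082.

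In some clusters neighbouring CpGs had unlike levels. On chr4_random the CpG at 129216 had a mean of 48.7% over 35 mice, with a lowest mouse of 26.1%, a median of 51.9% and a highest of 70.0%, while the other 5 CpGs on the same stretch had means between 97.8 and 98.8%. On chrUn_random the CpG at 2676457 had a mean of 46.0% over 40 mice (25.8 to 81.3%), and the other 5 CpGs of its cluster had means between 82.0 and 89.7%. On chr4_random a CpG read on both strands had 61.1% on the plus strand at 18919 and 59.8% on the minus strand at 18920. On chr9_random 3 CpGs read to the same depth in the same 34 mice fell along the stretch, from 89.8% at 164859 through 68.2% at 164866 to 7.14% at 164905. The mixed cluster printed above, on chrUn_random, had means of 13.1%, 60.5%, 41.7% and 79.4% in the order of its 4 CpGs. The first 3 of these stretches and the mixed cluster had no second copy in the search described next, whereas the stretch of chr9_random had 1953 copies on the chromosomes. The part that copies had in these values was not tested.

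Copies elsewhere in the genome touched few of the CpGs. Searched at an identity of 95% over 90% of the length, with 25 bp on either side, 64 of the 74 placed clusters had no second copy, and these held 383 CpGs with a mean of 25.4%. The 10 clusters with copies, 8 of them with a copy on a chromosome and 2 on another contig only, held 17 CpGs with a mean of 86.4%. The deepest CpG, on chrUn_random at 4767870, was among these, with 20 copies on the chromosomes, a mean of 85.6 reads per mouse and a mean of 97.2%. It is also among the 3 placed CpGs, counted below, with no MspI cut within a read on the same strand. Its position or the origin of its reads is therefore uncertain.

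Readings from opposite strands were alike. In 23 CpGs both cytosines were listed, and the plus minus the minus strand, averaged over the mice with both, ranged over these CpGs from -2.64 to 2.43 percentage points. The 4 CpGs of the cluster of chr9_random at 55781 that were read on both strands had means between 0.0751 and 0.602%, and the CpG of chrUn_random at 2676464 had 88.9% and 89.7%.

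The place of a CpG within its read went with its level. Of the 400 placed CpGs, 114 were the cytosine at the MspI cut itself and 283 lay 1 to 49 bp from a cut on the same strand, within the 50 bp read, and 3, all on chrUn_random, lay farther away. In the 23 unmethylated clusters (under 10% as judged from the CpGs away from the cut), the 56 cytosines at a cut had a mean of 5.48% and the 203 others 0.523%. Within each mouse the difference was 4.90 ± 1.02 percentage points (SD, n = 40), with a range of 2.54 to 7.79, and the cut cytosines were higher in 40 of 40 mice. Chromosomal CpGs differed in the same way, by 4.91 ± 0.241 points (SD, n = 40) in 40 of 40 mice, with means of 5.98% at 45758 cut cytosines and 1.09% at 172886 others.

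There was no further gradient along the read. From 1 to 10 bp after the cut the mean was 0.706%, from 11 to 20 bp it was 0.512%, and from 41 to 49 bp it was 0.514%. In the 8 clusters of 90% or more the order was the other way, with 95.4% at 9 cut cytosines and 96.7% at 37 others. The cut cytosines were higher in 9 of 40 mice, and on the chromosomes in 0 of 40. In the 10 clusters between these classes the cut cytosines were again the higher, with 78.1% at 14 against 74.1% at 31 others, in 39 of 40 mice and on the chromosomes in 40 of 40. The classes were set from the CpGs away from the cut. In both outer classes this choice alone can place those CpGs nearer the extreme than the cut cytosines. The part of this choice was not tested, nor was what set the level at the cut.

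**Figure D3:**
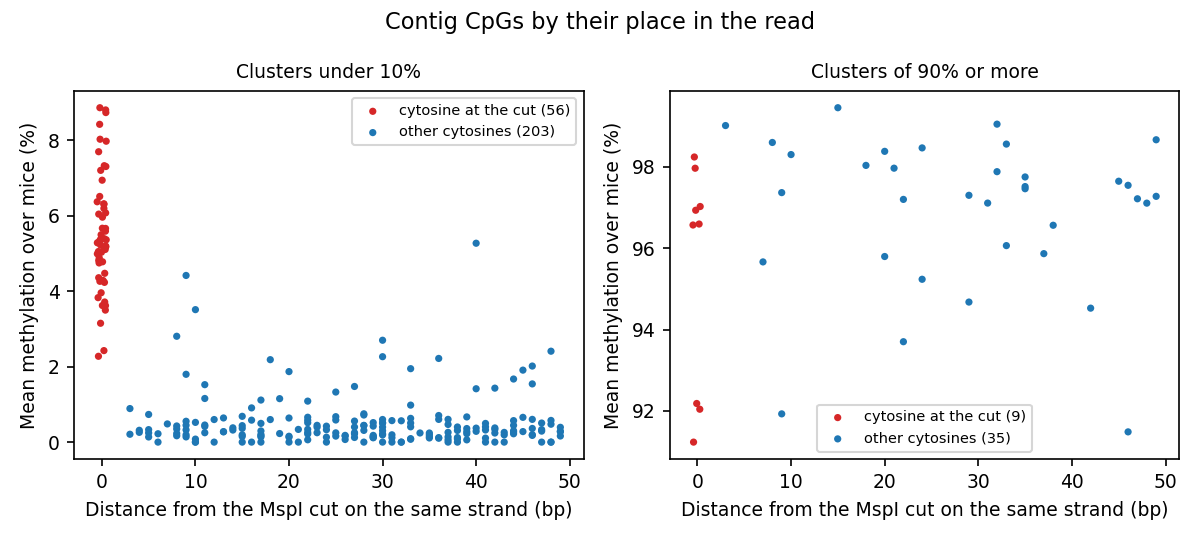
Each point is 1 contig CpG, at its distance from the MspI cut on the same strand (bp, horizontal axis) and its mean methylation over mice (%, vertical axis, which differs between panels and does not start at 0 on the right), in unmethylated (left) and highly methylated (right) clusters; 2 CpGs beyond the read length are not drawn. On the left the 56 cut cytosines (red) lie between 2.27 and 8.86%, and most of the others lie below 2%; on the right no such step is seen.

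The mean over the contigs depended on which CpGs entered it. Over the 39 contig CpGs read in all 40 mice the mean methylation was 65.6% ± 1.39 (SD, n = 10) in mice born to LF dams and fed LF, 65.6% ± 0.949 in mice born to LF dams and fed HF, 66.2% ± 0.600 in mice born to HF dams and fed LF and 65.8% ± 1.16 in mice born to HF dams and fed HF. The lowest mouse, at 63.6%, and the highest, at 68.5%, were in the last and the first of these groups, and the groups overlapped. Over each mouse's own listed contig CpGs the means were lower, from 30.1 to 41.4%, and over pooled reads they ranged from 62.7 to 72.0%. In CpGs with means between 20 and 80%, the deviation of mice from their group mean was 11.8 points (29 CpGs, root mean square), where sampling of reads alone would give 9.60. On the chromosomes these were 11.7 and 10.1 points.

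The comparison of contigs with chromosomes depended on which CpGs entered it. Over CpGs read in all mice the contigs were higher, 65.8% ± 1.04 against 39.5% ± 0.270 (SD, n = 40) for the 34329 chromosomal CpGs, a difference of 26.3 points that ranged from 24.2 to 28.8 and was positive in 40 of 40 mice. Over the CpGs that each mouse had, the difference was -0.371 points, with 33.7% ± 2.20 on contigs and 34.0% ± 0.766 on chromosomes, and the contigs were higher in 10 of 40 mice. The 39 CpGs read in all mice were not like the rest, since 18 of them (46.2%) were at 90% or more, against 19.1% of the chromosomal CpGs read in all mice.

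The contigs took about 1 in 1000 of the read counts summed over listed CpGs, in which a read counts once for each CpG it covers. Per 1000000 such counts they held 1016.4 ± 30.03 (SD, n = 10) in mice born to LF dams and fed LF, 1045 ± 83.0 in mice born to LF dams and fed HF, 1024 ± 36.4 in mice born to HF dams and fed LF and 1033 ± 38.9 in mice born to HF dams and fed HF. All but 1 mouse lay between 961 and 1094. The remaining one, born to an LF dam and fed HF, had 1249. Without it, an alternative added after seeing the data, the difference between mice fed HF born to HF and to LF dams turned from -11.9 to 10.8 per 1000000 read counts, and that between the diets after weaning in mice born to LF dams went from 28.6 to 5.86. Over CpGs read in all mice alone the order of the groups was another, with 720 ± 25.7, 675 ± 29.6, 649 ± 25.3 and 649 ± 47.0 per 1000000 read counts, so that the mice born to LF dams and fed LF, which also had the fewest read counts on average, had the highest share. The part of depth in this was not tested.

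**Figure D4:**
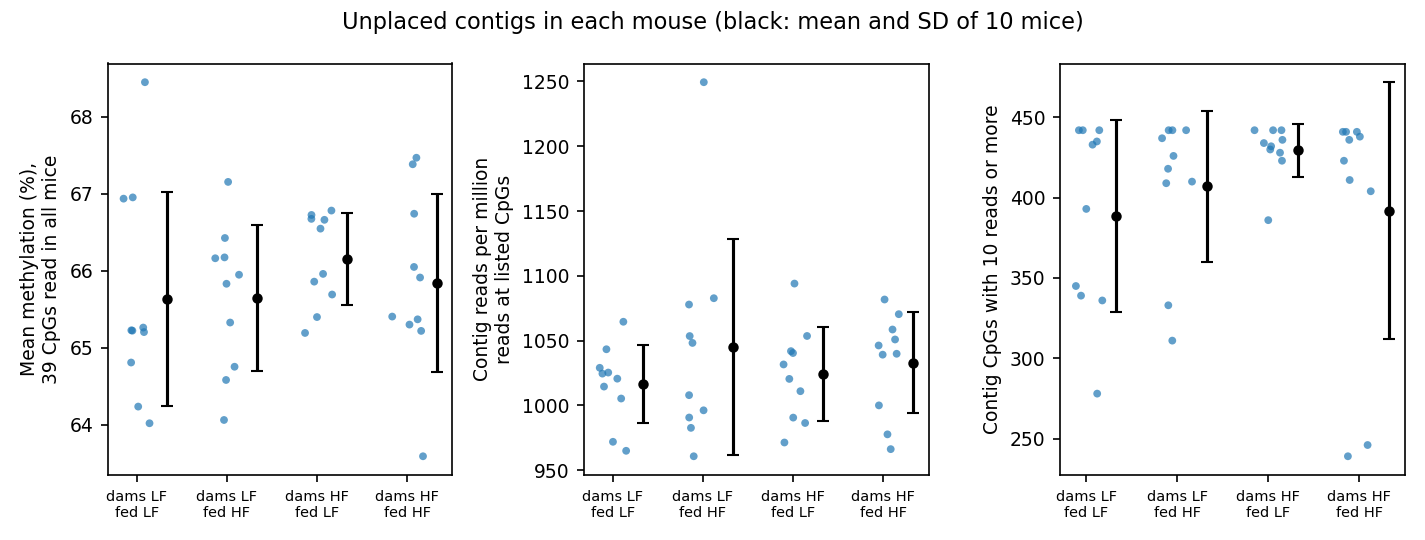
Each point is 1 mouse, and black points with bars are the mean and SD of the 10 mice of a group (diet of the dam above, diet after weaning below). The panels show the mean methylation (%) of the 39 CpGs read in all mice, the contig reads per 1000000 read counts at listed CpGs, and the number of contig CpGs with 10 reads or more; the groups overlap in each, and 1 mouse born to an LF dam and fed HF stands above the others in the middle panel.

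For maternal diet, mice given the same diet after weaning were compared by the diet of their dams. The 297 contig CpGs with 10 reads in 36 or more mice entered the tests, except those with the same value in all mice compared. Among mice fed HF, 256 contig CpGs could be tested and 9 (3.52%) had an unadjusted p below 0.05, 5 higher and 4 lower in mice born to HF dams. Over all CpGs tested the share was 3.72%, with 1.52% higher and 2.19% lower. No contig CpG passed a false discovery rate (FDR) of 5% by the per-CpG linear model of the groups with Benjamini-Hochberg adjustment over all CpGs, nor did any CpG tested (0.0%), and the smallest adjusted p of a contig CpG was 0.822. By the unequal-variance test 7 contig CpGs (2.73%) and 3.35% of all CpGs had a p below 0.05. By the exact Wilcoxon test these were 7 (2.73%) and 3.46%, and by a quasi-binomial model of the reads 9 (3.52%) and 4.59%. By limma, which could test all 297 contig CpGs, they were 16 (5.39%) and 4.42%. It used log2 ratios of counts with a constant added. A CpG with no methylated read in any mouse can then still differ between mice by its read depth. The part of depth in the limma counts, here and below, was not tested. Among mice fed LF, 11 of 267 contig CpGs (4.12%) had an unadjusted p below 0.05, 9 higher and 2 lower in mice born to HF dams, against 3.99% of all CpGs (2.39% higher, 1.6% lower). None passed the FDR, and the smallest adjusted p of a contig CpG was 0.818. The other tools, in the same order, called 11 (4.12%, and 3.62% of all CpGs), 9 (3.37%, and 3.6%), 11 (4.12%, and 4.69%) and, of 297, 19 (6.40%, and 6.14%). In this comparison limma values were higher in mice born to HF dams at 114 contig CpGs and lower at 183. Percent methylation was higher at 146 and lower at 121. In mice fed HF the limma values were higher at 110 and lower at 187, and percent methylation was higher at 128 and lower at 128.

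Among mice fed HF, the CpG with the smallest p and the largest fall was the second of the mixed cluster on chrUn_random, at 3755021. Its methylation was 36.8 to 60.0% with a median of 50% in 9 mice born to HF dams, and 45.8 to 74.2% with a median of 65.3% in 10 mice born to LF dams. The mice born to HF dams were lower as a group, but the ranges overlapped and only 1 of the 9 lay below all mice of the other group. The means were 51.1% and 62.6%, a difference of -11.4 ± 3.88 points (SE; exact permutation test, two-sided, p = 0.0109; adjusted p = 0.822). At its neighbours, 3754956, 3755059 and 3755070, the differences were 0.544, -5.99 and -3.51 points. The largest rise was at 1044817 on chrX_random, from 37.3% ± 13.1 (SD, n = 10) to 50.7% ± 16.1 (n = 9), a difference of 13.4 points (exact permutation p = 0.0626).

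Among mice fed LF, the smallest p was at 376062 on chr1_random, where methylation was 94.6 to 100.0% with a median of 99.0% in mice born to HF dams and 88.9 to 100.0% with a median of 94.6% in mice born to LF dams. The difference was 3.90 ± 1.30 points (SE, 10 mice each; permutation p = 0.00889; adjusted p = 0.818), and the ranges overlapped. The largest rise, at 3640300 on chrUn_random, was from 62.2% ± 16.1 to 73.8% ± 7.97 (SD, n = 10 each), 11.5 points. It is not among the 11, since the linear model gave p = 0.0576 (adjusted p = 0.818) and the other tools between 0.0498 and 0.0781, while the permutation p was 0.0486. The differences were 5.34 and 6.37 points at its neighbours 3640286 and 3640303. The largest fall, at 888708 on chr1_random, was from 84.6% ± 8.95 to 74.9% ± 10.5 (SD, n = 10 each), -9.73 points (permutation p = 0.0381; adjusted p = 0.818), with -0.205 and -7.93 points at its neighbours 888715 and 888727. Its p was above 0.05 by the exact Wilcoxon test (0.0547) and the quasi-binomial model (0.0867).

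For the diet after weaning, mice born to dams on the same diet were compared. Among mice born to LF dams, 9 of 249 contig CpGs (3.61%) had an unadjusted p below 0.05, 7 higher and 2 lower in mice fed HF, against 4.03% of all CpGs tested (2.22% higher, 1.81% lower). By the same model and adjustment none passed the FDR, which 0.00084% of all CpGs did, and the smallest adjusted p of a contig CpG was 0.808. The other tools called 8 (3.21%, and 3.71% of all CpGs), 10 (4.02%, and 3.72%), 11 (4.42%, and 4.75%) and, of 297, 10 (3.37%, and 4.58%). Among mice born to HF dams, 17 of 267 (6.37%) had an unadjusted p below 0.05, 7 higher and 10 lower in mice fed HF, against 4.06% of all CpGs (1.46% higher, 2.6% lower). That was the highest share of the pairwise comparisons, none of the 17 passed the FDR (0.00124% of all CpGs did), and the smallest adjusted p of a contig CpG was 0.820. The other tools called 15 (5.62%, and 3.69% of all CpGs), 13 (4.87%, and 3.69%), 15 (5.62%, and 5.03%) and, of 297, 22 (7.41%, and 4.90%). The 17 CpGs lay on 5 contigs and several came from the same clusters, so that they are not 17 separate readings.

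Among mice born to LF dams, the smallest p and the largest rise were at 320456 on chr8_random, within the methylated cluster printed above. Methylation was 81.5 to 100.0% with a median of 89.6% in 10 mice fed HF and 71.4 to 90% with a median of 80.8% in 9 mice fed LF. The mice fed HF were higher, and 5 of the 10 lay above all those fed LF. The means were 91.3% and 80.4%, a difference of 10.9 ± 3.14 points (SE; exact permutation test, two-sided, p = 0.00366; adjusted p = 0.808). The tested CpGs of the same cluster at 320419, 320426, 320433 and 320466 differed by 5.05, 2.84, 7.68 and -0.604 points. In mice born to HF dams the same CpG differed by 1.51 points between the diets (exact permutation p = 0.657). The largest fall was at 2748558 on chrUn_random, from 24.6% ± 15.1 (SD, n = 9) to 13.6% ± 9.78 (n = 10), -11.0 points (exact permutation p = 0.0694), while its neighbours at 2748572 and 2748597 differed by -5.40 and 7.13 points.

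Among mice born to HF dams, the smallest p and the largest fall were at 3335319 on chrUn_random, the middle CpG of the variable cluster. Methylation was 35.7 to 72.7% with a median of 63.7% in mice fed HF and 62.9 to 100.0% with a median of 75.0% in mice fed LF, so that 5 of the 10 mice fed HF lay below all those fed LF. The difference was -14.4 ± 4.96 points (SE, 10 mice each; permutation p = 0.00517; adjusted p = 0.820). Its tested neighbour at 3335349 differed by 1.88 points. The widest spread of all 442 was beside it, at 3335259, which was read in too few mice to be tested and had group means from 39.9 to 46.4% with SDs of 12.5 to 20.9. The largest rise was again at 1044817 on chrX_random, from 36.5% ± 14.9 (SD, n = 10) to 50.7% ± 16.1 (n = 9), 14.2 points (exact permutation p = 0.0625), and this CpG had the widest spread among those tested.

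**Figure D5:**
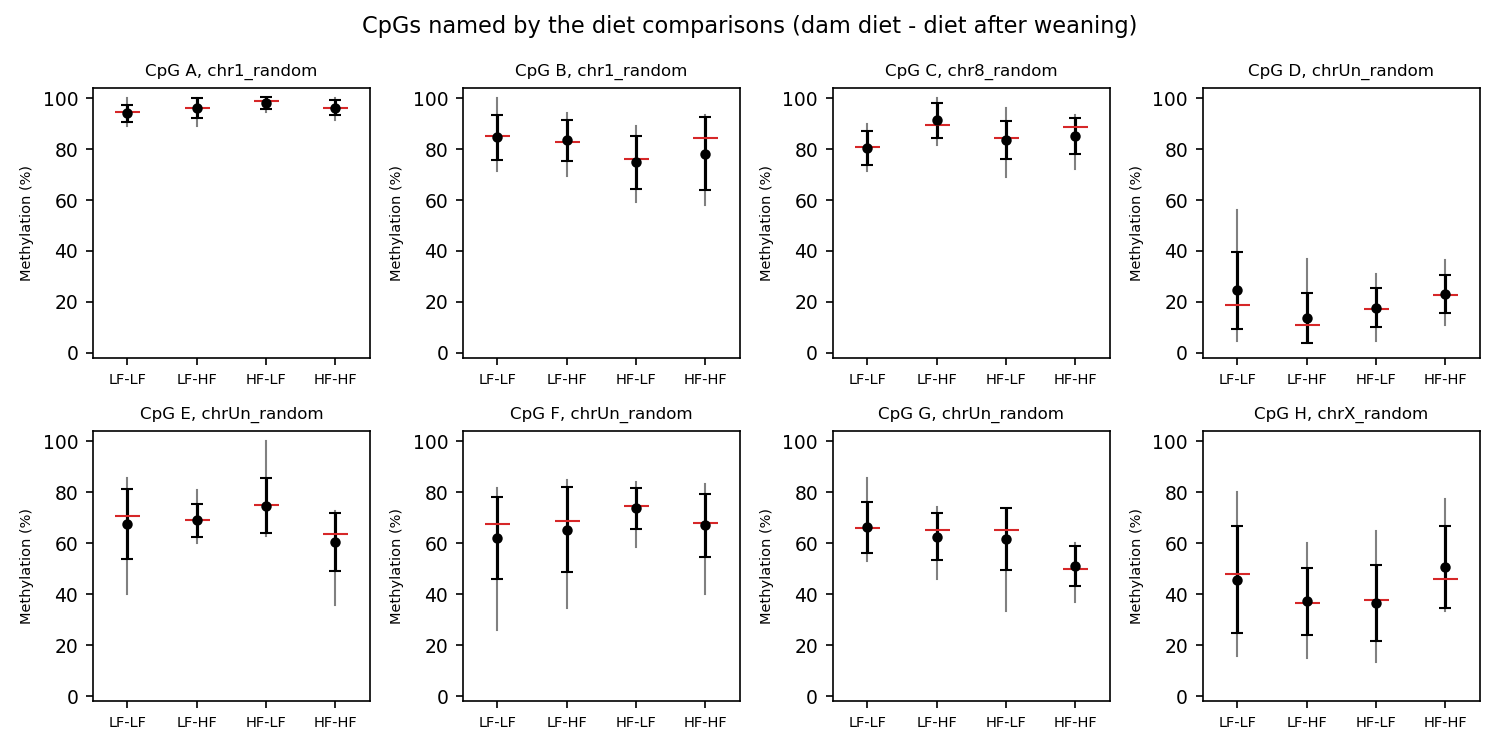
Methylation (%, vertical axis) of 8 contig CpGs in the 4 groups (horizontal axis, diet of the dam and then diet after weaning); black points and bars are the mean and SD, red lines the median and grey lines the range over mice. A and B are 376062 and 888708 on chr1_random, C is 320456 on chr8_random, D to G are 2748558, 3335319, 3640300 and 3755021 on chrUn_random, and H is 1044817 on chrX_random; the ranges of the groups overlap in every panel.

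Models with both diets over all mice gave similar shares. Of 278 contig CpGs, 10 (3.6%) had an unadjusted p below 0.05 for maternal diet, against 3.96% of all CpGs, 10 for the diet after weaning, against 4.34%, and 16 (5.76%) for the interaction of the 2 diets, against 4.18%. None passed the FDR in the linear models, where 0.0%, 0.00236% and 0.0% of all CpGs did, and the smallest adjusted p-values of contig CpGs were 0.874, 0.857 and 0.868. The quasi-binomial model called 14 (5.04%), 21 (7.55%) and 16 (5.76%) of them at p below 0.05, against 5.91%, 6.43% and 5.73% of all CpGs, and limma 10 (3.37%), 13 (4.38%) and 16 (5.39%) of 297, against 5.75%, 4.41% and 4.77%. Of the gene starts, the Gm34102 cluster had group means of 1.27% ± 0.714, 1.63% ± 0.349, 1.35% ± 0.339 and 1.78% ± 0.531 (SD; 10, 10, 10 and 9 mice) in the order of the groups given at the start, and the Maml2 cluster had 3.47% ± 1.76, 2.86% ± 1.97, 4.21% ± 2.20 and 4.59% ± 2.60. Named after their values were seen, 2 other unmethylated clusters had group means further apart relative to their SDs. The cluster of 20 CpGs on chr9_random at 54560 had 1.26% ± 0.658, 0.738% ± 0.388, 0.640% ± 0.225 and 0.866% ± 0.471 (n = 10 each), and that of 22 CpGs on chrUn_random at 3233082 had 1.32% ± 0.564, 2.25% ± 0.901, 2.48% ± 0.772 and 1.96% ± 0.641 (n = 10 each). The ranges of the groups overlapped in all 4, and cluster means were not tested. Each mouse's cluster mean was over the CpGs that the mouse had. At 54560 only 6 of the 20 CpGs were read in enough mice to be tested, and at 3233082 19 of the 22. The cut cytosines at 54560 had means of 3.62 to 4.28%, and the other CpGs 0.343%. A missing CpG can therefore move a mouse's mean, and the part of missing CpGs in the group means was not tested. Single CpGs in the windows around gene starts differed by more, such as the one at 422520 upstream of Maml2, named after its values were seen, which was 7.68 points higher in mice fed HF born to HF dams (unadjusted p = 0.0462, adjusted p = 0.822). This CpG is a cytosine at the MspI cut, the class that stood higher in unmethylated clusters.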

How the data were processed

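RRBS had been done by the authors on liver DNA from 40 mice: MspI digestion, size selection, bisulfite conversion, sequencing of 50 bp reads and alignment with Bismark to mm9. They deposited, per CpG and mouse, the counts of methylated and of all reads (listed from 10 reads on) and the methylated fraction; the counts were used, and the deposited fraction equalled their ratio within 5.6e-16. Columns of no mapped mouse numbered 0.

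Percent methylation was compared per CpG with Student's t-test, or linear models of both diets, over CpGs with 10 reads in at least 36 mice (297 contig CpGs; a CpG with the same value in all mice compared has no test), and p-values were adjusted by Benjamini-Hochberg over all CpGs (Python 3.11.15, scipy 1.17.1); named CpGs also had two-sided permutation tests, exact below 10 mice and otherwise with 100000 resamples. The code was tested on simulated data. Alternatives were Welch's, exact Wilcoxon and quasi-binomial tests, limma 3.58.1 on log2 ratios with 0.5 added, other coverage minimums, other numbers of mice and leaving out 1 mouse.

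Named CpGs were, per pairwise comparison, those with the smallest p, largest rise and largest fall, and those with the highest coverage and widest spread; contigs and clusters of 5 or more CpGs were described singly. Members and lists were chosen with earlier results of these data known. Measures averaged over members are given without p-values, although tests of them had been planned. Clusters of 7 or more CpGs were matched to the 189 contig sequences of NCBIM37 (14 searched, 12 with 1 place), joined by gaps of 50000 bp as in mm9; copies were sought with blastn 2.17.0. The 300-base RefSeq promoter windows of GRCm38.p6 (32851, from 250 bases before to 50 after the start) were matched exactly, so coordinates stay those of mm9. Depth limited single values: with about 22 reads a CpG, 1 read moves a mouse's value by several points.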

Additional observations from a re-analysis of the deposited data

Results flagged for a closer look

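Of 60 groups of values examined (the contig measures and the 10 named CpGs), 6 had 1 mouse far from the other mice of its group by Dixon's criterion, which chance meets in about 1 of 20 groups. That rate holds for independent values of a normal distribution. The named CpGs were chosen for large differences, small p-values, coverage or wide spread, and their values are bounded at 100%. The 6 therefore do not show an excess of outlying mice. The contig share of reads was 1249 per 1000000 read counts in 1 mouse born to an LF dam and fed HF, where the next was 1083. Over the 15 CpGs of chr1_random read in all mice, the mean was 56.9% in 1 mouse born to an HF dam and fed LF. The next was 58.6%, and over each mouse's own CpGs this group ran from 22.0 to 23.5%. On chrUn_random, methylation at 3335319 was 100.0% in 1 mouse born to an HF dam and fed LF (next 80.9%), at 4767870 it was 91.1% in 1 mouse born to an LF dam and fed HF (next 97.5%) and 91.5% in 1 mouse born to an HF dam and fed LF (next 95.1%), and at 3335259 it was 18.8% in 1 mouse born to an HF dam and fed HF (next 38.5%).

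Of the 10 named CpGs 9 were tested for an interaction of the diets, and 4 had an unadjusted p below 0.05 in the linear model, as had 4.18% of all CpGs. The adjusted p of each of the 4 was 0.868. The effect of the diet after weaning in mice born to HF dams minus that in mice born to LF dams was -9.37 points at 320456 on chr8_random, 16.2 points at 2748558 and -15.9 points at 3335319 on chrUn_random, and 22.7 points at 1044817 on chrX_random. These CpGs were named for large differences or small p-values in the comparisons that enter the interaction, so the values are a description and do not show that the effects differed.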

How the results depend on the processing

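No setting gave a contig CpG at an FDR of 5%. The counts of contig CpGs at p below 0.05 fell with fewer CpGs tested. With at least 20 reads, where 12 or 13 contig CpGs were tested, they were 1 and 0 for maternal diet in mice fed HF and LF, 0 and 1 for the diet after weaning in mice born to LF and HF dams, and 0 for maternal diet, diet after weaning and interaction over all mice, against 3.66%, 12.1%, 18.8%, 3.84%, 4.44%, 9.65% and 8.21% of all CpGs. Over CpGs read in all mice, 37 or 38 on contigs, they were 1, 4, 0, 2, 1, 1 and 1 in the same order, against 3.94%, 4.74%, 5.10%, 4.20%, 4.26%, 4.89% and 4.65%. limma, testing 297, gave 16 for maternal diet in mice fed HF (5.39%, and 4.42% of all CpGs) and 19 in mice fed LF (6.40%, and 6.14%). As stated above, the part of depth in the limma counts was not tested. The quasi-binomial model gave 21 for the diet after weaning over all mice (7.55%, and 6.43%). Without the mouse with the fewest reads (born to an HF dam and fed HF, chosen after seeing the data), the counts were 9 (3.52%, and 3.73% of all CpGs) for maternal diet in mice fed HF, 16 (5.99%, and 4.11%) for the diet after weaning in mice born to HF dams, and 12 (4.32%, and 3.98%), 12 (4.32%, and 4.33%) and 16 (5.76%, and 4.19%) for maternal diet, diet after weaning and interaction over all mice. Contigs minus chromosomes turned from 26.3 to -0.371 points over each mouse's own CpGs, and was 24.4 against the assigned chromosomes only. Among mice fed LF, the maternal difference in contig mean turned from 0.518 to -1.19 points over own CpGs, that of chr1_random from 1.20 to -1.02 points over pooled reads and -0.928 over own CpGs, and that in contig share from 7.71 to -70.7 per 1000000 read counts over CpGs read in all mice. Among mice born to LF dams, the difference after weaning turned from 0.703 to -1.89 points on chr1_random over pooled reads and from 28.6 to -44.8 per 1000000 read counts in share over CpGs read in all mice. The first value given for each methylation mean is over CpGs read in all mice. None of these means was tested. Of the named CpGs' alternative values, 43 kept their direction and side of p = 0.05, 6 passed it newly, 2 lost it (both at 888708 on chr1_random) and none reversed. No paired analysis was possible because the labels name neither the dam of a mouse nor shared replicate numbers, although males of a cage were divided between the diets after weaning. Depth limits single CpGs: most had about 22 reads a mouse, which alone gives 9.60 points of spread at middle levels.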
